A study of Homo sapiens with 8 samples.

Results

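The genes described here are syndecans, glypicans and small proteoglycans, 10 genes chosen by symbol: SDC1, SDC2, SDC3 and SDC4 of the syndecans, GPC1, GPC3, GPC4 and GPC6 of the glypicans, BGN (biglycan) and SRGN (serglycin). They were looked up by gene name among the 30017 gene symbols of the deposited tables, each had 1 record, and their TPM values were read in all 8 libraries. TPM, a transcript abundance, is the share of a library's transcripts per unit of transcript length, scaled to the same total in each. RNA was sequenced from A549-S3KO cells, a human lung adenocarcinoma line (A549) whose SMAD3 gene had been disrupted by genome editing, to which Smad3 was returned by a lentivirus. One line carried wild-type Smad3, and the other carried Smad3(RA/KP), with R104K and A105P in the MH1 domain, which holds the DNA-binding part of Smad3. The paper places these residues in the β4 region, which it proposes as a possible surface for binding other proteins. In the paper Smad3(RA/KP) still activated a Smad-responsive reporter, but it did not restore the cell motility that TGF-β induces. All cells were trypsinized and seeded on collagen, and each line was either left untreated or given TGF-β at the time of seeding (1 ng/ml, 8 h). There were 2 libraries in each of the 4 groups. Infected cells had been cloned by limiting dilution. For wild-type Smad3, clones matching the Smad3 level of parental A549 cells were hard to obtain. The clone with the lowest Smad3 expression among those compared was chosen. The sequenced clones are not named in the labels or methods, and a clonal difference and an effect of the Smad3 form cannot be told apart.

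Proteoglycans are proteins that carry glycosaminoglycans, long sulfated sugar chains. Syndecans cross the plasma membrane and glypicans are held to it by a lipid anchor, and both carry mainly heparan sulfate, which binds growth factors and matrix proteins. Biglycan is a secreted proteoglycan of the leucine-rich family, and serglycin is packed into secretory granules or secreted, best known from blood cells. In carcinoma cells syndecan-1 is an abundant surface proteoglycan of the epithelial type, and syndecan-4 is a component of focal adhesions, where cells hold on to the matrix. TGF-β signals through receptor kinases that phosphorylate Smad2 and Smad3, which then enter the nucleus with Smad4 and bind DNA.

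Mapped sequence, recovered from the ratio of coverage to FPKM, amounted to 1.149 to 1.809 Gb per library, and 12773 to 13281 genes had at least 1 TPM. SMAD3 was at 137 to 187 TPM, a measure that does not separate the lentiviral transcript from that of the disrupted gene. The summed TPM of 5 genes used to check the response to TGF-β (SMAD7, SKIL, PMEPA1, COL1A1 and FN1) was 148 to 199 in untreated libraries and 555 to 683 in treated ones. Of 8 epithelial markers, 6 had a mean of at least 1 TPM, and KRT19, a keratin of simple epithelia, was listed at 0 in every library. Of 9 leukocyte and mast cell markers, 7 were listed at 0 in every library, PTPRC and KIT among them. One library stood apart: in untreated Smad3(RA/KP) replicate 2, the difference from replicate 1 followed the GC content of the transcripts (Spearman −0.585 over 12388 genes, against 0.101 to 0.224 in the other groups). Values with the GC trend removed are given below for the 5 expressed genes and for the other named genes whose call they change.

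The sequences before the start sites of the 2 syndecans that passed the test and of the glypican with a level above 0 are shown, because Smad proteins act on genes by binding DNA. Each is the 250 bases before a RefSeq start site (GRCh38.p14), read 5′ to 3′ on the strand of the gene. Capitals mark CAGAC, the core of the Smad binding element, and GGCGC, a GC-rich motif bound by Smad3 and Smad4, each searched on both strands, so that GTCTG and GCGCC are marked too.
SDC1, chr2:20225476-20225725, minus strand: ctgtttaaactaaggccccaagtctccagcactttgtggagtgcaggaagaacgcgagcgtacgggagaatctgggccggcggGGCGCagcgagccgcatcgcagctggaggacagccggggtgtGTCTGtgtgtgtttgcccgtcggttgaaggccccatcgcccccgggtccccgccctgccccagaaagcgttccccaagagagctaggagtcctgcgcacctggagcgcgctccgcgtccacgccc
SDC4, chr20:45348425-45348674, minus strand: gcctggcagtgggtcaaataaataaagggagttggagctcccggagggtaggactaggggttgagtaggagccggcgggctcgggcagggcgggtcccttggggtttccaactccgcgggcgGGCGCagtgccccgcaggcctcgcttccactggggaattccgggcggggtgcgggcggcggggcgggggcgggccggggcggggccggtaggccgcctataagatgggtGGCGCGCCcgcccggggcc
GPC1, chr2:240435413-240435662, plus strand: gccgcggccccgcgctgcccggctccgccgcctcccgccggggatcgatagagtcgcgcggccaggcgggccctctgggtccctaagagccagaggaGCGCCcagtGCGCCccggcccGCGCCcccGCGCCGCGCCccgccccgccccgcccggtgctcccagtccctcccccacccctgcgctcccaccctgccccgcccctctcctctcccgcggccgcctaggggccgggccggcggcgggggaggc
The window of SDC1 held 1 CAGAC match, at bases −125 to −121 counted from the start site, and 1 GGCGC match. That of SDC4 held no CAGAC and 3 GGCGC matches, of which those at −19 to −15 and at −16 to −12 overlap. The window of GPC1 held no CAGAC and 5 GGCGC matches. Over all 35116 windows of this length, 38% held CAGAC and 44.5% held GGCGC, with 1.26 GGCGC matches per window on average. The AP-1 motif TGANTCA, present in 6.6% of all windows, was found in none of the windows of the 7 genes with a promoter entry. A second RefSeq start of SDC1, with its window at chr2:20225131-20225380, had no CAGAC and 1 GGCGC match. These matches describe the letters of the windows only.

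Of the 10 genes, 5 had a TPM above 0 in all 8 libraries (SDC1, SDC4, GPC1, SRGN and SDC3) and 5 were listed at 0 in all of them (SDC2, GPC3, GPC4, GPC6 and BGN). The 5 expressed genes all had a mean of at least 1 TPM and entered the test. In untreated cells the order of the levels began with SDC1 and GPC1 and ended with SDC3 in all 4 libraries, with SDC4 and SRGN between them. With TGF-β the order was SDC1, SDC4, GPC1, SRGN and SDC3 in all 4 libraries. Coverage of the 5 genes was 5.90 to 367 reads per base. Statements below that groups of libraries did not overlap only describe the values. The share of all genes tested that separate in this way was not counted. In bulk RNA, fewer cells of a type and less RNA per cell cannot be told apart.

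**Figure D1:**
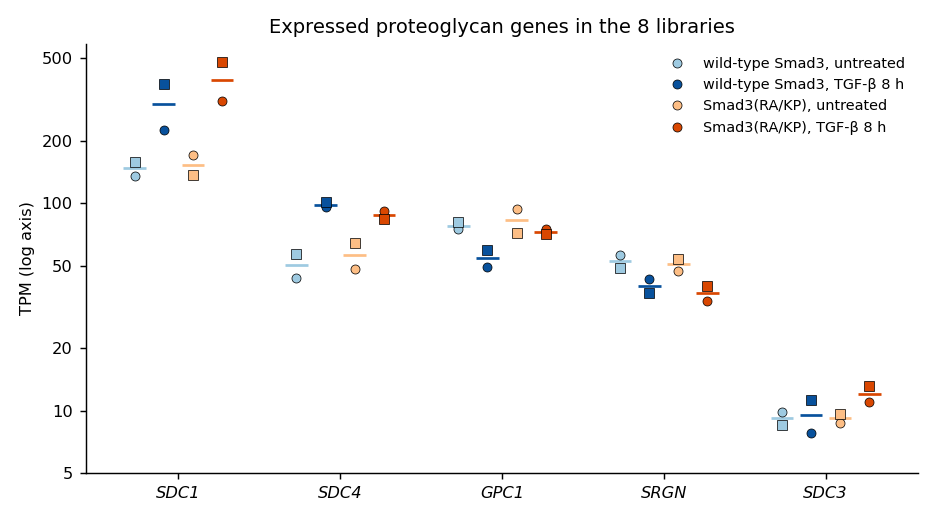
TPM on a log axis (vertical) of the 5 expressed genes (horizontal) in the 4 groups, marked by colour; circles are replicate 1, squares replicate 2, and horizontal bars the mean of the 2 libraries. SDC1 and SDC4 were higher in every treated library than in any untreated one, and SRGN, which did not pass the test, was lower in every treated library. The share of all genes tested that separate in this way was not counted.

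SDC1 encodes syndecan-1, and its gene lies on the minus strand of chromosome 2 (20200797 to 20225433, GRCh38). It had the highest level of the 10 genes in every library, and in each library stood above at least 96.3% of all symbols. In wild-type Smad3 cells SDC1 was at 136 and 158.7 TPM when untreated and at 225.7 and 375 TPM when treated. The untreated Smad3(RA/KP) libraries held 170.6 and 136.3 TPM and the treated ones 309.7 and 477.4 TPM. The lowest treated library was above the highest untreated one, and in both lines treated replicate 2 was the higher of its pair. The fold change by replicate was 1.66 and 2.36 in wild-type cells and 1.81 and 3.50 in Smad3(RA/KP) cells.

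SDC1 rose in Smad3(RA/KP) cells, by 1.33 ± 0.24 on the log2(TPM + 1) scale (SE, n = 2 per group, limma adjusted p = 0.0156). In wild-type cells the change was 0.98 ± 0.24 (SE) and did not pass the threshold of 0.05 (limma adjusted p = 0.0567). SDC1 was the 1 gene of the 10 called in Smad3(RA/KP) cells, or 1 of the 5 tested, beside 4.98% of all 13141 genes tested there (3.49% higher and 1.5% lower). Among those genes the change of SDC1 had rank 251 from the highest in Smad3(RA/KP) cells and rank 443 in wild-type cells. The call in Smad3(RA/KP) cells was lost when untreated replicate 2 was left out (0.91, limma adjusted p = 0.0687), without treated replicate 1 (1.53, 0.0617) or 2 (1.12, 0.171), without the filter on low values (0.114) and without the replicate block (0.0592). In wild-type cells SDC1 passed without either untreated Smad3(RA/KP) library (limma adjusted p = 0.0130 and 0.0127), with a filter at a mean of 5 TPM (0.0348), and with the GC trend removed (0.0174).

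SDC4 encodes syndecan-4, and lies on the minus strand of chromosome 20 (45325288 to 45348424). In wild-type Smad3 cells its level was 43.4 and 57.2 TPM when untreated and 95.5 and 101.5 TPM when treated. The Smad3(RA/KP) libraries held 48.1 and 63.9 TPM before and 91.6 and 84.2 TPM after treatment. All treated libraries were above all untreated ones, and replicate 2 was the higher of its pair in both untreated groups. The fold change by replicate was 2.20 and 1.77 in wild-type cells and 1.91 and 1.32 in Smad3(RA/KP) cells.

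SDC4 rose in wild-type cells, by 0.97 ± 0.18 on the log2(TPM + 1) scale (SE, n = 2 per group, limma adjusted p = 0.0182). It was the gene called among the 10 there, or 1 of the 5 tested, beside 4.68% of all genes tested (2.94% higher and 1.74% lower). For Smad3(RA/KP) cells its change was 0.65 ± 0.18 (SE) and did not pass (limma adjusted p = 0.0827). The ranks of SDC4 among the 13141 genes were 453 and 943 from the highest in the 2 lines. The call in wild-type cells was lost without untreated replicate 1 or 2 (limma adjusted p = 0.242 and 0.0935) and without treated replicate 1 or 2 (0.236 and 0.156) of that line. It was also lost without the filter on low values (0.0731), without the replicate block (0.0570), with the block within each line (0.0534) and without the mean-variance trend (0.0529). SDC4 passed in Smad3(RA/KP) cells with median-ratio scaling (0.75, limma adjusted p = 0.0399) and with the GC trend removed (0.76, 0.0160).

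SDC3 encodes syndecan-3, best known from nervous tissue, and lies on chromosome 1 (30869466 to 30908633, minus strand). It had the lowest level of the 5 expressed genes. Untreated libraries held 9.87 and 8.49 TPM with wild-type Smad3 and 8.72 and 9.58 TPM with Smad3(RA/KP). Treated libraries held 7.82 and 11.3 TPM with wild-type Smad3 and 11.0 and 13.1 TPM with Smad3(RA/KP). The treated wild-type libraries lay on either side of the untreated ones, while both treated Smad3(RA/KP) libraries were above the untreated ones of that line. The changes were 0.03 ± 0.23 with wild-type Smad3 and 0.36 ± 0.23 with Smad3(RA/KP) on the log2(TPM + 1) scale (SE), and neither passed (limma adjusted p = 0.975 and 0.379). In wild-type cells the sign turned on FPKM (−0.01) and without replicate 2 of either wild-type group (−0.20 untreated, −0.18 treated). After removal of the GC trend the changes were 0.09 and 0.19 (limma adjusted p = 0.812 and 0.574).

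GPC1 encodes glypican-1 and lies on the plus strand of chromosome 2 (240435698 to 240468078). In wild-type Smad3 cells its level was 75.0 and 81.2 TPM when untreated and 49.2 and 59.8 TPM when treated, so that these groups did not overlap. The Smad3(RA/KP) libraries held 94.1 and 72.0 TPM before and 75.1 and 70.8 TPM after treatment, and these overlapped. The change was −0.52 ± 0.19 with wild-type Smad3 and −0.17 ± 0.19 with Smad3(RA/KP) on the log2(TPM + 1) scale (SE). Neither passed the adjusted test (limma adjusted p = 0.196 and 0.616), although the unadjusted p in wild-type cells was 0.0236 in limma. With the GC trend removed the changes were −0.43 and −0.48, at limma adjusted p = 0.0663 and 0.0534. Without untreated Smad3(RA/KP) replicate 1 the change in that line had the opposite sign (0.07).

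SRGN encodes serglycin and lies on chromosome 10 (69088072 to 69104811, plus strand). Its level was 56.3 and 48.9 TPM in untreated and 43.0 and 36.9 TPM in treated wild-type cells. The level with Smad3(RA/KP) was 47.3 and 54.0 TPM before and 33.7 and 40.1 TPM after treatment. Every treated library was below every untreated one, with a ratio of 0.711 to 0.765 in all 4 replicate pairs. The changes were −0.39 ± 0.19 with wild-type Smad3 and −0.45 ± 0.19 with Smad3(RA/KP) on the log2(TPM + 1) scale (SE), and neither passed (limma adjusted p = 0.352 and 0.205). With the GC trend removed, the change in Smad3(RA/KP) cells was −0.07 (limma adjusted p = 0.876) and that in wild-type cells −0.34 (0.342). The leukocyte and mast cell markers, cells in which serglycin is abundant, summed to 4.74 to 13.5 TPM with CD14 as the 1 marker at a mean of at least 1 TPM, and PTPRC, CD3E, LYZ, SPI1, KIT, CPA3 and TPSAB1 were at 0.

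**Figure D2:**
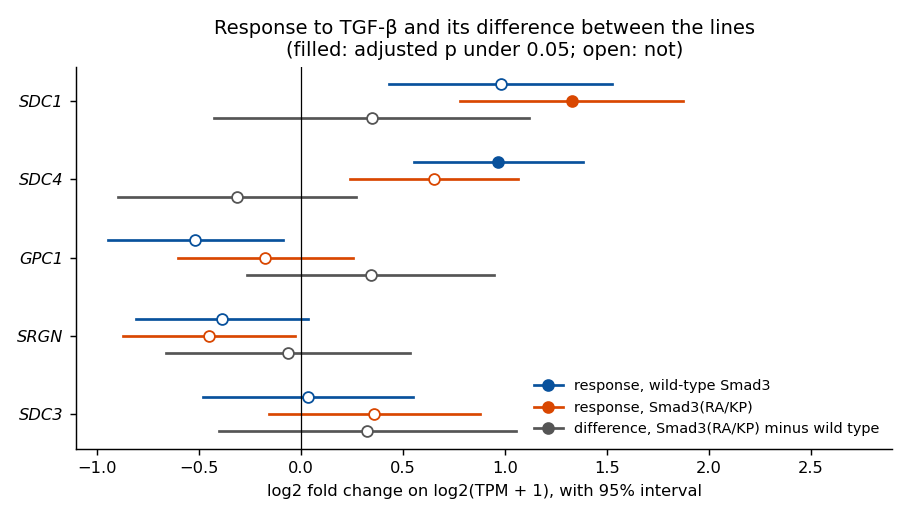
Log2 fold change (horizontal, on log2(TPM + 1)) of each expressed gene with its 95% interval for the TGF-β response of either line and for the difference between the responses; filled points passed an adjusted p of 0.05. SDC4 in wild-type and SDC1 in Smad3(RA/KP) cells were filled, and all 5 intervals of the difference include 0.

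The comparison of the responses asked whether the effect of TGF-β on these genes depended on the form of Smad3. None of the 5 tested genes passed, beside 0.0228% of all genes tested, and none had an unadjusted p under 0.05 in limma. The response in Smad3(RA/KP) cells minus that in wild-type cells was 0.35 for SDC1 (95% interval −0.43 to 1.12) and −0.31 for SDC4 (−0.90 to 0.27) on the log2(TPM + 1) scale. It was 0.34 for GPC1 (−0.26 to 0.95), −0.06 for SRGN (−0.66 to 0.53) and 0.33 for SDC3 (−0.40 to 1.06). SDC1 and SDC4 passing in different lines is therefore no difference between lines that the test showed. With the GC trend removed the difference was 0.09 for SDC1, −0.26 for SDC4, 0.10 for SDC3, −0.05 for GPC1 and 0.28 for SRGN, the last 2 with the opposite sign. The intervals reach from −0.90 to 1.12 across the 5 genes, so the lines were not shown to respond alike.

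Untreated Smad3(RA/KP) cells were set against untreated wild-type cells, and treated against treated. None of the 5 genes passed in either comparison, beside 0.0152% and 0.00761% of all genes tested, and none had an unadjusted p under 0.05 in limma. Without TGF-β the estimates ran from −0.05 for SRGN to 0.15 for SDC4, with 95% intervals reaching from −0.52 to 0.60 across the 5 genes. With TGF-β they were 0.42 for GPC1 (95% interval −0.01 to 0.85, limma adjusted p = 0.670), 0.40 for SDC1, 0.33 for SDC3, −0.11 for SRGN and −0.16 for SDC4. For GPC1 both treated Smad3(RA/KP) libraries, at 75.1 and 70.8 TPM, were above both treated wild-type ones, at 49.2 and 59.8 TPM. With the GC trend removed this estimate for GPC1 was 0.08.

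The make-up of the expressed set was compared between libraries by summing TPM, as a description without a test. The 3 expressed syndecans summed to 189 to 227 TPM in the untreated libraries and to 329 to 575 TPM in the treated ones. Their share of the TPM of all 10 genes was 59.1 to 63.3% without and 78.1 to 83.8% with TGF-β. Within the syndecans, SDC1 held 65.0 to 83.1% and SDC4 14.6 to 30.5%, ranges in which treated and untreated libraries overlapped. SDC3 held 3.78 to 5.22% of syndecan TPM without and 2.29 to 2.67% with TGF-β. The ratio of SDC1 to GPC1 was 1.81 to 1.96 in the untreated and 4.12 to 6.75 in the treated libraries, and that of SDC4 to GPC1 was 0.511 to 0.889 and 1.19 to 1.94.

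**Figure D3:**
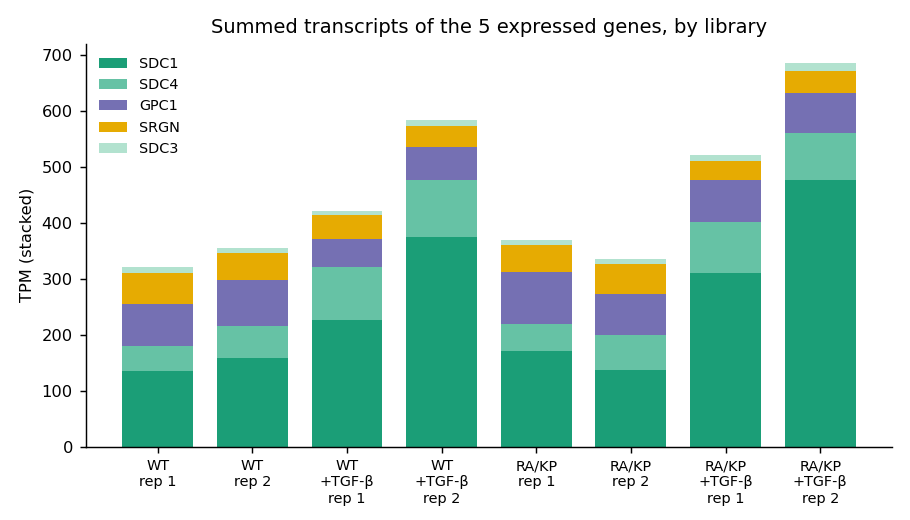
TPM of the 5 expressed genes stacked by library (vertical, from 0), 1 bar per library of the wild-type (WT) and RA/KP lines with and without TGF-β. The bars reached 321 to 369 TPM in untreated and 421 to 686 TPM in treated libraries, and the SDC1 and SDC4 segments were taller in every treated library.

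The 5 genes at 0 were SDC2 (syndecan-2, chromosome 8), GPC3 and GPC4 (glypicans, on the X chromosome at 133535745 to 133985646 and 133301036 to 133415177), GPC6 (chromosome 13, 93226825 to 94408020) and BGN (X chromosome, 153494889 to 153509546). Each was listed at 0 TPM, FPKM and coverage in all 8 libraries. Among all symbols, 11634 were listed at 0 in every library. None of 77 ribosomal protein genes was at 0 in any library, but KRT19 was at 0 in all of them, so a 0 in these tables is given as listed and not as absence of the transcript. BGN overlaps HAUS7, a gene on the opposite strand with a mean of 64.2 TPM. Of 11 further glypicans and leucine-rich proteoglycans, 9 were at 0 in every library, among them GPC5 and DCN (decorin). The other two were LUM (lumican) at a mean of 2.38 TPM and GPC2 at 1.29 TPM, and neither passed in any comparison.

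Because the GC content of the transcripts differed among the 5 genes, the response was also computed with the GC trend of each library removed. Transcript GC was 66.7% for GPC1, 60.1% for SDC1, 58.7% for SDC3, 48.8% for SDC4 and 38.0% for SRGN. For Smad3(RA/KP) replicate 2 the log2 ratio of treated to untreated values correlated with GC over 12388 genes at a Spearman rho of 0.663, against −0.0131 to 0.0863 in the other 3 pairs of libraries. In that pair the log2 ratio changed from 1.80 to 1.49 for SDC1, from 0.39 to 0.67 for SDC4, from −0.02 to −0.58 for GPC1, from −0.42 to 0.33 for SRGN and from 0.42 to 0.17 for SDC3. In the other 3 pairs no ratio of the 5 genes changed by more than 0.113. SDC1 and SDC4 passed in both lines under this setting, and the part of GC content in the deposited values was not tested further.

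**Figure D4:**
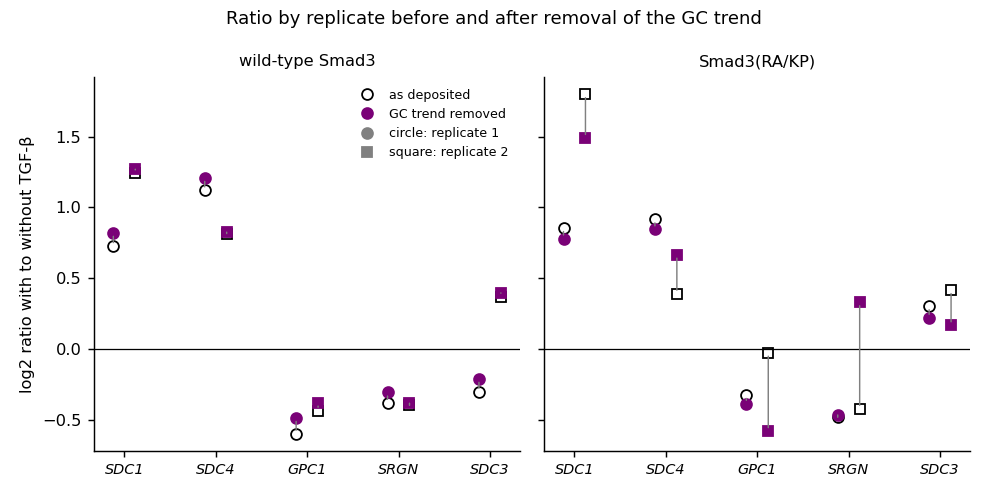
Log2 ratio of treated to untreated libraries (vertical, on log2(TPM + 1)) of each gene by replicate in wild-type Smad3 (left) and Smad3(RA/KP) cells (right); open symbols are as deposited, filled ones after the GC trend was removed, circles replicate 1 and squares replicate 2. The filled and open squares in Smad3(RA/KP) cells lie apart, most for SRGN (−0.42 and 0.33) and GPC1 (−0.02 and −0.58).

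The function of these core proteins depends on their chains, so the enzymes that build, sulfate, edit and break down glycosaminoglycans were read from 7 lists of 69 genes, of which 53 were tested. In wild-type cells 7 of the 53 rose and none fell (13.2%, beside 4.68% of all genes tested). With Smad3(RA/KP) 6 rose and none fell (11.3%, beside 4.98%), all 6 among the 7. The median change of the 53 was 0.09 and 0.01 in the 2 lines, beside −0.06 and −0.10 over all genes tested. None passed for the difference between the lines, and none had an unadjusted p under 0.05 in limma for it. By step, 1 of 6 tested enzymes of the linker rose in each line, 0 of 4 heparan sulfate polymerases, 1 of 7 heparan sulfate sulfotransferases and the epimerase, and the 1 tested gene for editing and cleavage. Of chondroitin and dermatan sulfate enzymes 3 of 14 rose in each line, of genes that supply sugar and sulfate donors 1 of 10 in wild-type and none in Smad3(RA/KP) cells, and of lysosomal breakdown enzymes 0 of 11.

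XYLT1, a xylosyltransferase that starts the linker on the core protein, was at 1.18 and 0.991 TPM in untreated and at 4.57 and 4.22 TPM in treated wild-type cells. The Smad3(RA/KP) libraries held 1.47 and 1.16 TPM before and 6.38 and 5.76 TPM after treatment. It rose in both lines, by 1.37 ± 0.25 and 1.61 ± 0.25 on the log2(TPM + 1) scale (SE, limma adjusted p = 0.0147 and 0.00737). NDST1, which starts the sulfation of heparan sulfate, was at 35.1 and 36.3 TPM in untreated and at 64.7 and 72.1 TPM in treated wild-type cells. It was at 31.8 and 36.1 TPM in untreated and at 63.6 and 71.7 TPM in treated Smad3(RA/KP) cells, and rose by 0.92 and 0.97 (limma adjusted p = 0.0115 and 0.00936). SULF2, a secreted enzyme that removes 6-O-sulfate from heparan sulfate outside the cell, rose by 1.19 and 0.99 (limma adjusted p = 0.0139 and 0.0321). Its levels were 12.8 to 16.9 TPM in the 4 untreated and 22.6 to 38.3 TPM in the 4 treated libraries.

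The 3 enzymes of chondroitin and dermatan sulfate that passed rose in both lines. CHST11, a chondroitin 4-O-sulfotransferase, was at 6.89 to 11.1 TPM in untreated and at 24.8 to 32.2 TPM in treated libraries, a rise of 1.68 with wild-type Smad3 and 1.35 with Smad3(RA/KP) (limma adjusted p = 0.00187 and 0.00594). CHST3, a chondroitin 6-O-sulfotransferase, went from 15.6 to 18.1 TPM untreated to between 39.6 and 56.7 TPM treated, a rise of 1.29 and 1.44 (limma adjusted p = 0.00594 and 0.00384). DSE, the epimerase that makes dermatan sulfate, was at 4.67 to 7.61 TPM untreated and at 11.6 to 14.8 TPM treated, a rise of 1.22 and 0.94 (limma adjusted p = 0.0132 and 0.0423). SLC26A2, a sulfate transporter, rose in wild-type cells by 1.31 (limma adjusted p = 0.0192) from 5.73 and 8.99 to 15.6 and 24.0 TPM. The Smad3(RA/KP) libraries held 5.26 and 13.01 TPM before and 11.4 and 13.4 TPM after treatment (0.51, limma adjusted p = 0.272). This value was 0.16 without untreated replicate 1, 0.86 without untreated replicate 2, 0.23 without treated replicate 1 and 0.79 without treated replicate 2 of that line, and none of these passed (0.124 to 0.646). SLC26A2 passed in Smad3(RA/KP) cells with the GC trend removed (0.87, limma adjusted p = 0.0109). The difference of −0.80 between the lines did not pass (limma adjusted p = 0.881). EXT1 and EXT2, which together polymerise heparan sulfate, had means of 39.6 and 45.5 TPM, and the lysosomal enzymes HEXA and GUSB of 124.6 and 74.5 TPM, and none of the 4 passed in either line.

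After removal of the GC trend 9 enzymes passed with wild-type Smad3 and 8 with Smad3(RA/KP), while 1219 and 949 of all genes were called. The enzyme counts depended on single libraries. In wild-type cells 1 enzyme passed without untreated replicate 1 or 2 and none without treated replicate 1 or 2 of that line, against 8 without any 1 of the Smad3(RA/KP) libraries. With Smad3(RA/KP) 2 passed without treated replicate 1 or 2, 11 without untreated replicate 1 and 6 without untreated replicate 2 of that line, and 4 without any 1 wild-type library. All genes called moved as well, from 106 to 1011 with wild-type Smad3 and from 163 to 2622 with Smad3(RA/KP). Of the enzymes named, CHST3 kept its call in Smad3(RA/KP) cells without any 1 of the 8 libraries (highest limma adjusted p = 0.0489 over all settings). CHST11 lost its call without treated wild-type replicate 1 or 2 in wild-type cells (0.0567 and 0.0562) and without treated replicate 1 in Smad3(RA/KP) cells (0.0631). In wild-type cells XYLT1, NDST1, SULF2, CHST3, DSE and SLC26A2 did not pass without any 1 of the 4 libraries of that line (0.0592 to 0.236). The calls of XYLT1, NDST1, SULF2 and DSE in Smad3(RA/KP) cells were lost without treated replicate 1 or 2 (0.0580 to 0.172). SULF2 and DSE there also did not pass without any 1 wild-type library. The same held without the filter on low values, without the replicate block or on coverage (limma adjusted p = 0.0549 to 0.233). Both also did not pass there with the block within each line, nor SULF2 without the mean-variance trend. In wild-type cells DSE, SULF2 and SLC26A2 also lost their calls without the filter on low values and without the replicate block. DSE there also lost its call on coverage, and SLC26A2 with the block within each line.

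**Figure D5:**
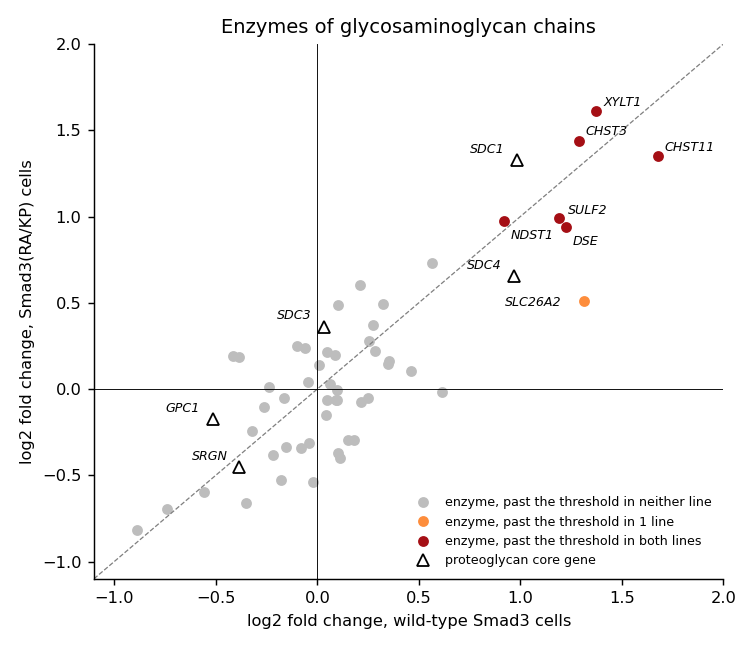
Response to TGF-β as log2 fold change of TPM + 1 for wild-type Smad3 (horizontal) and Smad3(RA/KP) cells (vertical) of 53 glycosaminoglycan enzymes, coloured by the number of lines in which they passed an adjusted p of 0.05, and of the 5 expressed proteoglycan genes (triangles); the dashed line marks equal change. The 6 enzymes that passed in both lines and SLC26A2 lie at 0.92 to 1.68 on the horizontal axis, and the comparison does not test the distance from the dashed line.

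Among other proteoglycans and partners, the genes past the threshold were SPOCK1, NRP1, TGFBR3, MMP9 and NOTUM. SPOCK1, a matrix proteoglycan of the testican family, rose in both lines, from 4.92 to 9.09 TPM in untreated to 17.9 to 24.7 TPM in treated libraries (1.80 and 1.25, limma adjusted p = 0.00174 and 0.0108). NRP1, a receptor that can carry a glycosaminoglycan chain, fell in Smad3(RA/KP) cells from 59.8 and 59.2 to 35.2 and 17.7 TPM (−1.22, limma adjusted p = 0.0219), a value that was −0.79 without treated replicate 2 and −1.65 without treated replicate 1 of that line. In wild-type cells NRP1 was at 55.2 and 48.4 TPM before and at 27.2 and 25.5 TPM after treatment (−0.95, limma adjusted p = 0.0627), and it passed there in 7 of 21 settings, among them the removal of the GC trend (0.0210). TGFBR3 (betaglycan, a co-receptor of TGF-β) was at 2.22 and 1.82 TPM in untreated and at 0.256 and 0.273 TPM in treated wild-type cells (−1.25, limma adjusted p = 0.0413). The Smad3(RA/KP) libraries held 2.11 and 2.36 TPM before and 0.809 and 0.513 TPM after treatment (−0.97, limma adjusted p = 0.0966). TGFBR3 was below 1 TPM in all 4 treated libraries and entered the test through the untreated ones, so its call is not read as a result, although it was also called without the filter (limma adjusted p = 0.0457). Of 18 genes in the list 9 were tested. In wild-type cells 1 was called higher (SPOCK1) and 1 lower (TGFBR3), while 4.68% of all genes tested were called. The count of the list in wild-type cells holds TGFBR3 and is therefore not read as a result. With Smad3(RA/KP) 1 was called higher (SPOCK1) and 1 lower (NRP1), while 4.98% of all genes tested were called.

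Of 14 partners and shedding enzymes of syndecans and glypicans 13 were tested. MMP9 and NOTUM, 2 of them, were called higher in each line, beside 2.94% and 3.49% of all genes tested. MMP9, a secreted metalloproteinase that can cleave syndecan-1, rose by 1.62 with wild-type Smad3 and 2.11 with Smad3(RA/KP) (limma adjusted p = 0.0174 and 0.00556). Its level was 0.459 and 2.01 TPM in untreated and 2.12 and 12.4 TPM in treated wild-type cells. MMP9 was listed at 0 and 2.26 TPM in untreated and at 3.54 and 12.4 TPM in treated Smad3(RA/KP) cells. In both lines replicate 2 was the higher library of each group. Treated and untreated libraries did not overlap within either line. Across the lines they did, as treated wild-type replicate 1 was below untreated Smad3(RA/KP) replicate 2. NOTUM, a secreted hydrolase that acts at glypicans, rose by 1.40 and 1.75 (limma adjusted p = 0.0210 and 0.00826), from 0.429 to 1.97 TPM untreated to 3.25 to 5.66 TPM treated. NOTUM was below 1 TPM in 3 of the 4 untreated libraries and entered the test mainly through the treated ones. Its call is therefore not read as a result, nor is the count of 2 that holds it. Both MMP9 calls were lost without the filter on low values, as was the NOTUM call with wild-type Smad3. The SPOCK1 and NRP1 calls of the Smad3(RA/KP) line were lost under that setting too. The NOTUM call of that line and the SPOCK1 call with wild-type Smad3 held. A pseudocount of 5 TPM removed the MMP9 and TGFBR3 calls with wild-type Smad3. Dropping the mean-variance trend removed the NRP1 call. Without the replicate block neither MMP9 call held (0.485 and 0.249), nor those of NOTUM (0.0996) and TGFBR3 (0.0596) in wild-type cells and of SPOCK1 (0.0505) and NRP1 (0.0752) in Smad3(RA/KP) cells. With the block within each line MMP9 (0.0556), NOTUM (0.0595) and TGFBR3 (0.0915) did not pass in wild-type cells, nor NRP1 (0.0532) in Smad3(RA/KP) cells. SPOCK1, MMP9 and NOTUM lost their calls without treated replicate 1 or 2 of the same line (limma adjusted p = 0.0524 to 0.266), and NOTUM and MMP9 in wild-type cells also without untreated replicate 2 of that line (0.0874 and 0.217), NOTUM without its replicate 1 too (0.244). TGFBR3 lost its call without any 1 wild-type library (0.214 to 0.340) or either treated Smad3(RA/KP) library (0.0554 and 0.0547). NRP1 lost its call without untreated or treated Smad3(RA/KP) replicate 2 (0.150 and 0.156) or either treated wild-type library (0.0578 and 0.0575).

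As a description, the genes most like each called proteoglycan gene were sought among 9459 genes whose mean was 5 TPM or more, by Pearson's r of log2(TPM + 1) over the 8 libraries. These libraries share lines, treatment and base composition, so r is given without a test. For SDC1 they were BOK (0.987), FAM129B (0.983) and SLC39A13 (0.981), and 293 genes had an r of at least 0.9. For SDC4 they were DOCK4 (0.987), RAI14 (0.986) and TES (0.986), and 210 genes had an r of at least 0.9.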

How the data were processed

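RNA of 8 libraries, 2 for each of 4 groups (wild-type Smad3 or Smad3(RA/KP), without or with TGF-β), was poly(A)-selected and sequenced on the Ion platform. Per the submitters' processing notes, the reads were aligned by HISAT2 2.1.0 to GRCh38 and genes quantified by StringTie 2.0.4 without de novo assembly. The annotation and the use of strand are not given in the sources used here. For each library the authors deposited 1 table with TPM (scaled by the authors to the same total per library), FPKM (per length and mapped fragments) and coverage (mean reads per base, a signal that is not normalized) for 33122 records. Read counts were not used here, so no counting intervals are given. Mapped bases were recovered as the most frequent ratio of coverage to FPKM, from records at 10 FPKM or more.

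Records of 1 symbol were summed. The 13141 genes whose mean TPM was 1 or more were tested with limma 3.58.1 (R 4.3.3) on the log2(TPM + 1) scale, which understates changes of low genes. The fit held the 4 groups and the replicate number as a block, with empirical Bayes moderation, a mean-variance trend, 3 residual and 5.9 prior degrees of freedom, and Benjamini-Hochberg adjustment over all genes tested at 0.05. The block follows the study's ratios within each of 2 independent experiments; that equal numbers mark 1 experiment in every group is an assumption. Deviations of same-numbered libraries correlated at 0.0484 to 0.332 between groups. Where the labels do not show separate cultures, the p-values measure the spread between these libraries only.

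The GC content of transcripts came from GENCODE, and the GC alternative removed each library's trend over 12388 genes (94.3% of those tested). Promoter windows were taken from RefSeq for 7 of the 10 genes; SDC2, GPC3 and SRGN had no entry. Named genes were the 10 genes, up to 4 genes of each list past the threshold, or 2 with the highest mean TPM where none passed, and the 3 genes most like each called gene. The genes and lists were chosen with earlier results of these data known. A few genes of the lists are not reported here and were left out of them. The fit was tested on simulated data. Alternatives were other pseudocounts, filters, scalings, units, blocks and variance models, and leaving out each library. The plots were made in Python 3.11.15 with matplotlib 3.10.9.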

Additional observations from a re-analysis of the deposited data

How the results depend on the processing

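With 2 libraries per group, the limits lie in the spread between libraries. The number of the 10 genes that passed was 1 in either line. Leaving out 1 library raised or lowered it in wild-type Smad3 cells, depending on the library, and left or lowered it in Smad3(RA/KP) cells. The number in wild-type cells became 0 without the filter on low values, without the replicate block, with the block within each line and without the mean-variance trend, and 2 with a mean of at least 5 TPM and with the GC trend removed. The number in Smad3(RA/KP) cells became 0 without the filter and without the replicate block, and 2 with median-ratio scaling and with the GC trend removed. Without the filter more genes were tested. The cause of these changes, and of those without 1 library, was not tested. For the difference of the responses and for both comparisons between the lines, 0 genes passed under all 21 settings. The pseudocounts of 0.5 and 5 TPM, FPKM, quantile normalization, the highest record of a symbol and, chosen after the data were seen, coverage in place of TPM left both counts at 1.

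SDC1 and SDC4 kept their positive sign for the response in both lines under all 21 settings. Changes of sign were seen in estimates that did not pass. On FPKM, the response in wild-type cells was −0.0060 for SDC3 and −0.00037 for HEXA. With the GC trend removed, SDC3 was at 0.053 between the untreated lines, SRGN at 0.072 between the treated lines, and the difference of the responses was −0.053 for GPC1 and 0.28 for SRGN. Under that setting the response was 0.015 for EXT1 and 0.0010 for HEXA in Smad3(RA/KP) cells.

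Leaving out 1 library gave −0.076 to 0.77 for the difference of the SDC1 responses and −0.22 to 0.098 for that of SRGN. Between the untreated lines it gave −0.37 to 0.48 for SDC1, −0.24 to 0.24 for SDC3, −0.17 to 0.32 for GPC1 and −0.19 to 0.084 for SRGN. Between the treated lines it gave −0.37 to 0.045 for SDC4 and −0.28 to 0.046 for SRGN. The response in wild-type cells was −0.20 to 0.27 for SDC3 and −0.11 to 0.20 for HEXA, and that in Smad3(RA/KP) cells −0.42 to 0.069 for GPC1, −0.41 to 0.11 for HEXA and −0.30 to 0.68 for GUSB.

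Without the replicate block the numbers of all genes called fell from 615 to 277 in wild-type and from 655 to 269 in Smad3(RA/KP) cells, and 4 enzymes passed in each line. The pairing by number is an assumption. Deviations of same-numbered libraries correlated at 0.0484 between untreated and treated Smad3(RA/KP) libraries to 0.332 between untreated and treated wild-type libraries. Without the filter on low values 4 enzymes passed in each line. A leave-one-out fit leaves 1 group with a single library, which is then assumed to vary like the others.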
